A study of Mus musculus with 80 samples.

Results

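Hematopoietic progenitor cells (HPC) of newborn mice that lack the interferon receptor gene Ifnar were compared with HPC of wild-type newborns by bulk RNA-seq. Of the 80 samples of the series, 8 belong to this comparison and were chosen by their titles and shared library code. The 4 Ifnar KO libraries carry the genotype Ifnar -/- and the 4 WT libraries are labelled wild type. All 8 came from mice at P0, the day of birth, on the B6 background. The labels name neither the receptor subunit that was deleted, nor the gate used to sort the cells, nor whether a library came from 1 animal or a pool, so p-values measure the spread between libraries. Other libraries were used only where stated. These were P0 hematopoietic stem cells (HSC), 4 Ifnar -/- and 5 wild type; P14 HPC with unmutated Flt3, 4 Ifnar -/- and 4 Ifnar +/-; and an age series of HPC with no genotype label, with 3 libraries at E16, 4 at P0, 4 at P7, 5 at P14 and 4 from adults of 8 weeks.

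Type I interferons (the alpha and beta interferons) bind a receptor made of the subunits Ifnar1 and Ifnar2. The receptor's kinases Tyk2 and Jak1 phosphorylate Stat factors, which join Irf9 to form the complex ISGF3. ISGF3 binds interferon-stimulated response elements and switches on antiviral genes, several of which, such as Irf7 and Irf9, belong to the pathway itself. In hematopoietic stem and progenitor cells a low tonic signal through this receptor, without infection, is known to maintain a basal level of such genes.

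The libraries held 11.68 to 13.17 M assigned reads in Ifnar KO and 12.86 to 14.72 M in WT (M for 1000000), and 12988 genes passed the filter on low counts. Levels are given as counts per 1000000 reads (CPM) scaled by TMM factors, and every fold change is a log2 ratio of Ifnar KO over WT with its standard error from edgeR's quasi-likelihood fit. Ptprc, the gene of the pan-leukocyte protein CD45, had 281, 328, 309 and 386 CPM in Ifnar KO libraries, against 339, 406, 323 and 425 CPM in WT libraries, and Flt3, a receptor of multipotent and lymphoid-primed progenitors, had 379, 648, 610.2 and 631 CPM in Ifnar KO libraries, against 499, 659, 545 and 989.9 CPM in WT libraries. The levels of these 2 genes overlapped between the groups. Of the genes that define mature lymphocytes and hepatocytes, Cd3e, Ncr1 and Ms4a1 had no read in any library, Pax5 had at most 0.079 CPM and Alb at most 4.9 CPM. Other members of the marker lists had reads, and the summed levels were 131 to 159.8 CPM in Ifnar KO and 189 to 277 CPM in WT for 7 B cell markers. They were 35.7 to 57.4 CPM in Ifnar KO and 70.5 to 111 CPM in WT for 8 T and NK cell markers. The 7 hepatocyte markers summed to 16 to 23.5 CPM in Ifnar KO and 26.4 to 35.7 CPM in WT. The 10 mast cell and basophil genes varied most between libraries, with 1083 to 8997 CPM in Ifnar KO and 1368 to 6126 CPM in WT.

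The libraries differed in a technical measure. The Spearman correlation across genes between gene length and a library's deviation from the mean of the 8 libraries was 0.114, 0.0766, 0.145 and 0.232 in Ifnar KO, against -0.263, -0.221, -0.294 and 0.181 in WT. Longer genes thus had relatively more reads in all 4 Ifnar KO libraries and in WT replicate 4, and relatively fewer in WT replicates 1 to 3. Reads from Y-linked genes came to 3020 to 3902 in Ifnar KO libraries and to 2782 and 3594 in WT replicates 1 and 3, while WT replicates 2 and 4 had 1 and 0 such reads and 976 and 973 reads of the female-specific transcript Xist. WT replicates 2 and 4 are thus libraries of female cells, and no Ifnar KO library is.

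Most interferon-stimulated genes were lower in Ifnar KO than in WT newborn HPC, as were most lymphoid and dendritic and some myeloid genes tested. Higher in Ifnar KO were 9 of 19 tested stem cell genes, 8 of 12 megakaryocyte genes and 6 of 11 erythroid genes. Fewer of these were called in a fit that took the gene length correlation of each library as a covariate. Of the 12988 genes tested, 702 were lower in Ifnar KO (5.4%) and 645 were higher (4.97%), together 10.4%, at an adjusted p under 0.05 (edgeR quasi-likelihood test, Benjamini-Hochberg adjustment over all genes tested). Of 174 genes in 11 lists of Stat and Irf factors, nucleic acid sensors, antiviral effectors and MHC class I genes, 150 could be tested, and of these 112 were lower and 1 was higher. The median log2 fold change of the 150 was -1.20, against 0.01 for all genes tested. Among the 81 lower genes with a log2 fold change beyond -3, 38 were on these lists. The summed level of the 174 genes was 12703 to 13510.0 CPM in Ifnar KO libraries and 23612 to 28323 CPM in WT libraries, so the groups were far apart. In bulk RNA a lower level can mean less RNA per cell or fewer cells of a type that expresses the gene, and the files cannot tell these apart. The counts over all genes moved with single libraries: without WT replicate 4 they were 1130 lower and 1180 higher, and without Ifnar KO replicate 2 they were 457 and 414. They were 371 and 279 without WT replicate 1, 426 and 309 without WT replicate 2, and 383 and 305 without WT replicate 3. Without Ifnar KO replicate 3 the higher genes numbered 404. The number of lower interferon-list genes stayed within 1.5 times of 112 in each of these fits.

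**Figure D1:**
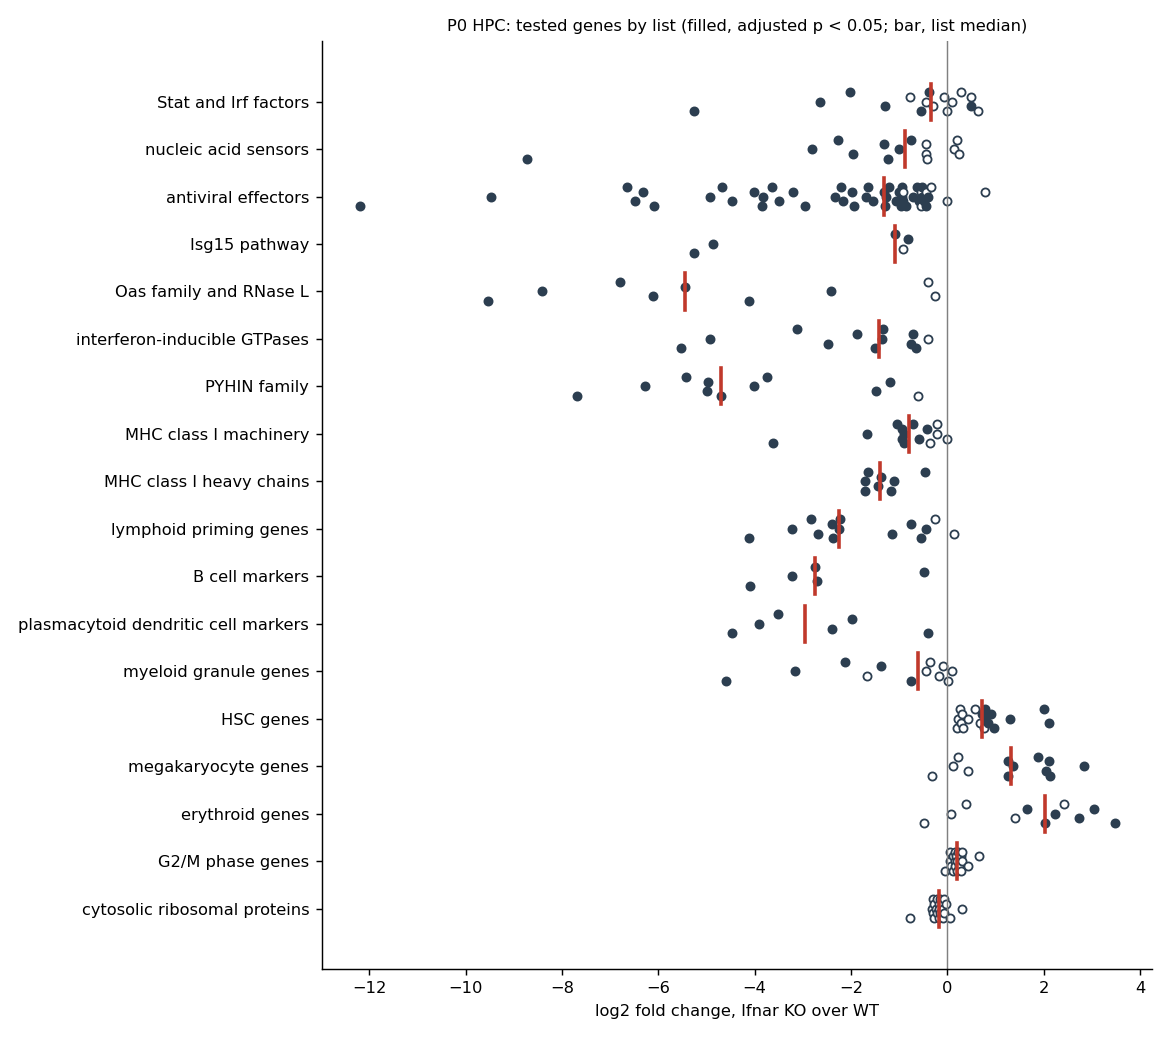
Log2 fold change, Ifnar KO over WT, of each tested gene (points) in lists of interferon genes, lineage genes and housekeeping genes, with the list's median (bar); filled points passed an adjusted p of 0.05. Interferon lists and lymphoid, B cell and plasmacytoid dendritic lists lie left of 0, HSC, megakaryocyte and erythroid lists lie right of 0, and the ribosomal list has no call. Fitted values of genes without reads in Ifnar KO, such as Ifi44 and Oas1g, depend on the fit's prior count and are no bound.

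The pathway's own receptor genes were transcribed in both genotypes. Ifnar1 had 85.1, 85.7, 84.2 and 75.5 CPM in Ifnar KO libraries, against 56.3, 55.1, 57.4 and 79.5 CPM in WT libraries (0.41 ± 0.14, adjusted p = 0.0774). WT replicate 4 lay within the range of the Ifnar KO libraries, whereas the other 3 WT libraries lay below it. Ifnar2 had 102, 83.5, 85.5 and 65.7 CPM in Ifnar KO libraries, against 61.6, 78.4, 85.3 and 88.3 CPM in WT libraries (0.10 ± 0.15, adjusted p = 0.728). Neither subunit was lower in Ifnar KO, so a count over the whole gene does not show the deletion in these libraries, and the check of the labels rests on the interferon-stimulated genes below. Of the 20 genes that adjoin Ifnar1 in the annotation, 10 on each side, 15 could be tested, and 0 of these 15 were called by edgeR at an adjusted p under 0.05, against 10.4% of all genes. An unadjusted p under 0.05 was found for 4, and DESeq2 called 2 and limma-voom 0. The ligands were all but silent: of 19 interferon genes listed, Ifng and the type I genes, none reached the filter and 16 had no read in any library, and the sum of the 19 reached at most 0.148 CPM in Ifnar KO and 0.159 CPM in WT.

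A list of 14 genes held interferon receptors, Ifnar1 and Ifnar2 among them, with kinases and inhibitors. Of these 12 were tested, none was lower and 1 was higher (8.33%, beside 10.4% of all genes tested). Jak2, a kinase used by many cytokine receptors including that for interferon gamma, had 45.7, 44.9, 38.3 and 41.7 CPM in Ifnar KO libraries, against 26.9, 28.3, 24.7 and 28.5 CPM in WT libraries (0.65 ± 0.13, adjusted p = 0.00819). Jak1 and Tyk2, the kinases of the type I receptor, were not called, at 0.30 ± 0.09 and -0.15 ± 0.18. Socs3, an inhibitor of cytokine signalling, ranged from 5.12 to 51.4 CPM in Ifnar KO and from 3.26 to 17.8 CPM in WT, and was not called (1.01 ± 0.64, adjusted p = 0.345).

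Among 16 Stat and Irf transcription factors, 6 were lower and 1 was higher. Irf7, the factor that amplifies interferon production, had 8.86, 7.08, 10.1 and 6.31 CPM in Ifnar KO libraries, against 424, 222, 369 and 225 CPM in WT libraries (-5.26 ± 0.26, adjusted p = 1.20e-07). Irf9, the DNA-binding subunit of ISGF3, had 42.5, 40.5, 31.1 and 38.4 CPM in Ifnar KO libraries, against 239, 229.7, 281 and 199 CPM in WT libraries (-2.64 ± 0.14, adjusted p = 1.85e-07). In both genes every Ifnar KO library lay below every WT library, a separation found in 8.84% of all genes tested, and the opposite separation in 7.58%. Stat2, a further subunit of ISGF3, was not called, with 26.7, 22.6, 24.3 and 36.4 CPM in Ifnar KO libraries, against 27, 37.9, 38.3 and 46.6 CPM in WT libraries (-0.45 ± 0.20, adjusted p = 0.166), and its groups overlapped. Irf8, a factor of monocyte and dendritic cell development, had 21.2, 24.1, 21.3 and 23.6 CPM in Ifnar KO libraries, against 106, 95.9, 107 and 58.4 CPM in WT libraries (-2.02 ± 0.18, adjusted p = 1.74e-05). Smaller differences in Irf5 (-0.55 ± 0.14, adjusted p = 0.0294) and Irf1 (-0.38 ± 0.10, adjusted p = 0.0301) did not hold when single libraries were left out, with adjusted p up to 0.105 for Irf5 and 0.0981 for Irf1. Stat5b was the 1 gene of the interferon lists that was higher (0.48 ± 0.14, adjusted p = 0.0402), and it too lost the call in 5 of 8 fits with 1 library left out.

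**Figure D2:**
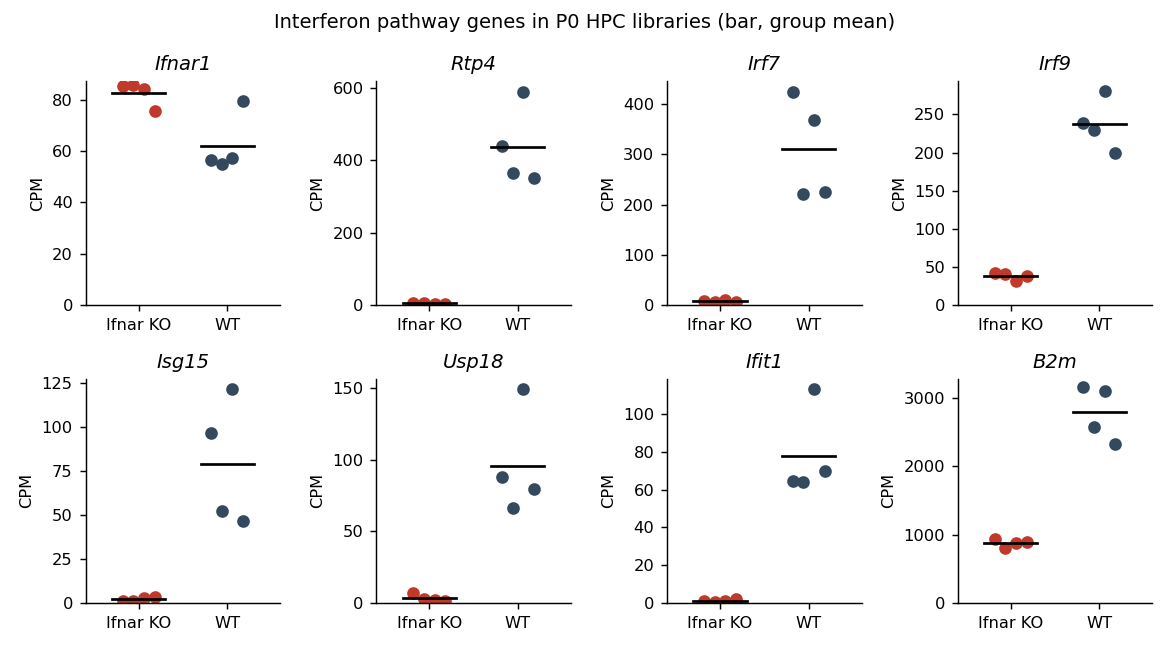
Level in CPM of 8 genes in each library, Ifnar KO left and WT right in each panel, with the group mean as a bar; the axis is linear and starts at 0. Ifnar1 overlaps between the groups, while Rtp4, Irf7, Irf9, Isg15, Usp18, Ifit1 and B2m are below every WT library in all 4 Ifnar KO libraries.

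Of 50 tested antiviral effectors 43 were lower and none was higher. The gene of smallest adjusted p in the whole comparison was Ifi27, a membrane protein gene induced by alpha interferon, with 10.2, 7.77, 10.3 and 9.5 CPM in Ifnar KO libraries, against 322, 302, 305 and 221 CPM in WT libraries (-4.93 ± 0.16, adjusted p = 2.29e-09). Rtp4, a receptor transporter that restrains flaviviruses, had 5.28, 7.23, 3.66 and 3.49 CPM in Ifnar KO libraries, against 440.5, 364, 589 and 352 CPM in WT libraries (-6.47 ± 0.26, adjusted p = 1.53e-08). Rsad2, which encodes viperin, had 8.18, 6.24, 5.52 and 7.35 CPM in Ifnar KO libraries, against 106, 75.5, 126 and 82.4 CPM in WT libraries (-3.84 ± 0.20, adjusted p = 1.85e-07). In these 3 genes the groups did not overlap. Ifit1, a sensor of viral RNA caps, had 1.11, 0.381, 1.04 and 2.00 CPM in Ifnar KO libraries, against 64.3, 64.1, 113 and 70.1 CPM in WT libraries (-6.09 ± 0.35, adjusted p = 3.54e-07), and its highest WT library was replicate 3. Ifi44 had no read in any Ifnar KO library and 2360 reads in the 4 WT libraries together. Taking 3 reads over the group as the limit that a count of 0 allows, Ifi44 was at least 768-fold lower in Ifnar KO. Ifit3b was likewise at 0 in all 4 Ifnar KO libraries, against 351 reads in WT, and was at least 114-fold lower.

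Other effectors differed less between the genotypes. Ifit2 kept most of its level, at 37.2, 40.7, 34.1 and 37.4 CPM in Ifnar KO libraries, against 46.6, 43.9, 65.5 and 59.3 CPM in WT libraries (-0.53 ± 0.15, adjusted p = 0.0445). Zc3hav1, the zinc-finger antiviral protein, had 335, 309, 332 and 344 CPM in Ifnar KO libraries, against 397, 391, 466 and 485 CPM in WT libraries (-0.40 ± 0.10, adjusted p = 0.0248). Ly6e, a cell-entry inhibitor, was present at a high level in both groups, with 727, 709, 723 and 669 CPM in Ifnar KO libraries, against 1467, 1249.8, 1510.0 and 1258 CPM in WT libraries (-0.96 ± 0.09, adjusted p = 3.55e-05). In Ifit2, Zc3hav1 and Ly6e the groups did not overlap, but the difference was smaller than in Ifit1, Rtp4 and Ifi44.

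The Oas family and several nucleic acid sensors were lower as well. The Oas family makes the second messenger that activates RNase L, and 7 of its 9 tested members were lower, with a median log2 fold change of -5.44, which is the same with Oas1g at its bound. Oas3 had 0.17, 0.761, 0.97 and 1.86 CPM in Ifnar KO libraries, against 75.7, 49.5, 76.8 and 64.5 CPM in WT libraries (-6.11 ± 0.37, adjusted p = 4.18e-07). Oas2 had 4 reads in all 4 Ifnar KO libraries together and 1565 in WT, and Oas1g had none in Ifnar KO and 369 in WT. Among 14 tested nucleic acid sensors 8 were lower, with a list median of -0.88, beside -1.31 for the antiviral effectors. Dhx58, which encodes the RNA helicase LGP2, had 18.6, 17.7, 15.7 and 18.3 CPM in Ifnar KO libraries, against 139.7, 91.6, 144 and 116 CPM in WT libraries (-2.81 ± 0.16, adjusted p = 3.54e-07). Ddx58 (RIG-I) and Ifih1 (MDA5), the other helicases of that pathway, differed by -1.31 ± 0.12 and -1.22 ± 0.17. Zbp1, a sensor of Z-form nucleic acid, had 1 read in Ifnar KO and 636 in WT, a ratio of WT over Ifnar KO of 621 with a 95% counting interval of 111 to 24558. Intervals and limits from counts cover counting error only.

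In the Isg15 pathway, which couples a ubiquitin-like protein to other proteins, 4 of 5 tested genes were lower. Isg15 itself had 0.852, 1.29, 2.91 and 3.12 CPM in Ifnar KO libraries, against 96.6, 52.2, 122 and 46.4 CPM in WT libraries (-5.25 ± 0.42, adjusted p = 4.73e-06). Its deconjugating protease Usp18, which also damps the receptor, had 7.24, 2.44, 1.94 and 1.63 CPM in Ifnar KO libraries, against 87.8, 66.2, 149 and 79.4 CPM in WT libraries (-4.87 ± 0.43, adjusted p = 1.11e-05). The conjugating enzyme Ube2l6 differed less, with 75.7, 106, 94 and 95.4 CPM in Ifnar KO libraries, against 237, 177, 219 and 151 CPM in WT libraries (-1.08 ± 0.15, adjusted p = 6.95e-04). All 3 were lower in every Ifnar KO library than in any WT library. The ligase Herc6 passed the test by a small margin (-0.82 ± 0.24, adjusted p = 0.0429) and lost the call in 6 of 8 fits with 1 library left out.

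Cell-autonomous defence genes followed. Of 12 tested interferon-inducible GTPases 11 were lower, among them Tgtp2 with 5.2, 7.08, 4.55 and 6.98 CPM in Ifnar KO libraries, against 52.3, 46.2, 61.8 and 46.5 CPM in WT libraries (-3.12 ± 0.19, adjusted p = 4.55e-07) and Irgm1, a regulator of the family, with 126, 118, 105 and 119.8 CPM in Ifnar KO libraries, against 314, 270.1, 409 and 334 CPM in WT libraries (-1.50 ± 0.13, adjusted p = 9.32e-06). Of 11 tested PYHIN genes, the family of cytosolic DNA sensors on chromosome 1, 10 were lower, with a median of -4.71. Ifi206 had 0.596, 0.533, 0.0746 and 0.297 CPM in Ifnar KO libraries, against 22.5, 22.8, 39.8 and 31.6 CPM in WT libraries (-6.27 ± 0.38, adjusted p = 4.32e-07), whereas Ifi203 had 65, 73.9, 104 and 138 CPM in Ifnar KO libraries, against 235, 211, 230.2 and 189 CPM in WT libraries (-1.18 ± 0.20, adjusted p = 0.00247). Of 6 tested Schlafen genes 4 were lower, among them Slfn2 (-2.00 ± 0.26, adjusted p = 3.55e-04) and Slfn5 (-4.27 ± 0.58, adjusted p = 5.36e-04). Of 6 tested Ifitm genes, which encode inhibitors of viral entry, 2 were lower: Ifitm3 with 329.9, 325, 388 and 396 CPM in Ifnar KO libraries, against 1433, 847, 1276 and 826 CPM in WT libraries (-1.61 ± 0.17, adjusted p = 7.22e-05) and Ifitm6 (-3.45 ± 0.37, adjusted p = 8.49e-05). Members of the Oas1, Ifit, Tgtp, PYHIN, Schlafen and H2 families are near-identical to each other, so reads may have been split between them, and the share of each member is uncertain.

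Most genes of MHC class I molecules and of their peptide supply were lower. All 8 tested heavy chain genes and 10 of 14 tested genes of the peptide supply were lower, against 5 and 6 when the gene length correlation was a covariate. B2m, the light chain shared by all class I molecules, had 936, 810.1, 872 and 892 CPM in Ifnar KO libraries, against 3167, 2578, 3107 and 2327 CPM in WT libraries (-1.67 ± 0.11, adjusted p = 8.20e-07). H2-K1 had 231, 227, 269.6 and 237 CPM in Ifnar KO libraries, against 959.8, 712, 753 and 731 CPM in WT libraries (-1.71 ± 0.12, adjusted p = 9.35e-07). As a share of the WT mean, the Ifnar KO mean was 31.4% for B2m and 30.6% for H2-K1. The immunoproteasome subunits Psmb8 (-0.90 ± 0.12, adjusted p = 5.69e-04), Psmb9 (-0.95 ± 0.11, adjusted p = 1.28e-04) and Psmb10 (-0.95 ± 0.13, adjusted p = 5.32e-04) differed by close to 1 on the log2 scale, as did the peptide transporter subunit Tap1 (-1.05 ± 0.17, adjusted p = 0.00171). Nlrc5, the transactivator of class I genes, had 0, 0.533, 0.671 and 1.41 CPM in Ifnar KO libraries, against 9.14, 5.69, 9.93 and 8.37 CPM in WT libraries (-3.62 ± 0.56, adjusted p = 0.00146). Of 9 tested MHC class II genes 2 were lower, H2-DMa (-0.97 ± 0.15, adjusted p = 0.00109) and H2-Eb1 (-2.27 ± 0.64, adjusted p = 0.0401). The number of lower class II genes was 0 with the length covariate, 4 with the Y-linked level as covariate and 6 without WT replicate 4, and H2-Eb1 lost its call when any 1 of 6 other libraries was left out.

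The response element of ISGF3 was looked for in promoters, from 250 bases before to 50 after the gene start, taken from RefSeq tables on GRCm38.p6 (the build of the count table is not given in the sources used here). The motif searched was GAAANNGAAA on either strand, which reads TTTCNNTTTC on the other, with overlapping matches counted. Of the 112 lower genes of the interferon lists, 86 had a promoter in the table, and 45 of these 86 (52.3%) held the motif, against 383 of 9776 tested genes with a promoter (3.92%) and 3.44% of all promoters in the table. The share was 7.42% among 458 lower genes outside the interferon lists and 1.97% among 508 higher genes. Shown here are the promoters of the 6 lower interferon-list genes of smallest adjusted p that the table holds, with the motif in capitals where it occurs. Irf9 has 2 start sites in the table, and the first is shown.
Irf7, chr7:141266375-141266674, minus strand: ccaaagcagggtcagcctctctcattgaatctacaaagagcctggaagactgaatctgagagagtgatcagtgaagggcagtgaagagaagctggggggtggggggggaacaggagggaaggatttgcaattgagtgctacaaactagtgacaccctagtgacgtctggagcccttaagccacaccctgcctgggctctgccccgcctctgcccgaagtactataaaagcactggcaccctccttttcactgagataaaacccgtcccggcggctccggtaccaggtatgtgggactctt
Irf9, chr14:55603735-55604034, plus strand: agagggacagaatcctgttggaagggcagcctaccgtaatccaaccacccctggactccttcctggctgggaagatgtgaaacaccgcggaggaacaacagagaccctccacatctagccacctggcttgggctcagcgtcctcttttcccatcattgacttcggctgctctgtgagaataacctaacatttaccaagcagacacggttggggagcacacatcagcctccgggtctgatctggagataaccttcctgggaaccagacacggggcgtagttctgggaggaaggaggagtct
Rsad2, chr12:26456403-26456702, minus strand: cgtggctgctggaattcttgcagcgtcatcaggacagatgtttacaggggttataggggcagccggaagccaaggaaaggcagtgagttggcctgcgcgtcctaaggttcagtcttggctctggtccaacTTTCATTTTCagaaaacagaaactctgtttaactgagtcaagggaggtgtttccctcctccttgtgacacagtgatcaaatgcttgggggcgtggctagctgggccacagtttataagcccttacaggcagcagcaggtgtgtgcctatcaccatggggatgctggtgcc
Ifit1, chr19:34640639-34640938, plus strand: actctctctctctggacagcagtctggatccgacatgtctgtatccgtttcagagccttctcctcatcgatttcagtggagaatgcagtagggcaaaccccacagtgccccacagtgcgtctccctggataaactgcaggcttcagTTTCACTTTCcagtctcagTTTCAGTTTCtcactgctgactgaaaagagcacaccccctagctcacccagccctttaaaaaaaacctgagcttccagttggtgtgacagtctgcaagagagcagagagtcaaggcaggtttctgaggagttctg
Xaf1, chr11:72301379-72301678, plus strand: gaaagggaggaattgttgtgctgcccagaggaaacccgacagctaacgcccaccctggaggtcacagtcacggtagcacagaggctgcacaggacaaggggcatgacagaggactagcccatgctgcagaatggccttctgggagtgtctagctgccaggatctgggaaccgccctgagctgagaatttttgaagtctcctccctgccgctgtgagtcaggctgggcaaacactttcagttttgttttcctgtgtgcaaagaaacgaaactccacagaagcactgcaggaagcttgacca
Ifi209, chr1:173630609-173630908, plus strand: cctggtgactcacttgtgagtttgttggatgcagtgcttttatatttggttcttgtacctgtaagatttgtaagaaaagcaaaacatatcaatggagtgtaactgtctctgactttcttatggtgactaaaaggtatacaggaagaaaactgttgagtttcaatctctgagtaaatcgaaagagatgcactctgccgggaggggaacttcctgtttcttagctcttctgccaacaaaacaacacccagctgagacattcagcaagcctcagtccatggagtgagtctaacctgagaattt
Ifit1 held the motif at 2 places, starting 104 and 85 bases before the gene start, and Rsad2 at 1 place, starting 120 bases before it. The windows of Irf7, Irf9 (at both start sites), Xaf1 and Ifi209 held no match to these letters. Xaf1, a partner of the apoptosis inhibitor Xiap, had 12.7, 9.44, 10.9 and 7.64 CPM in Ifnar KO libraries, against 126, 99, 143 and 88.4 CPM in WT libraries (-3.49 ± 0.20, adjusted p = 3.54e-07), and Ifi209, a PYHIN gene, had 1.87, 1.22, 1.12 and 2.15 CPM in Ifnar KO libraries, against 25.6, 25.4, 29.5 and 23.4 CPM in WT libraries (-4.02 ± 0.24, adjusted p = 4.18e-07).

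Genes outside the interferon pathway also differed, among them genes on lists of lineage genes. These lists were chosen with earlier results of these data known, so their counts are no independent test of a lineage difference. Of 14 tested lymphoid priming genes 12 were lower in Ifnar KO, with a median of -2.24, and all 5 tested B cell genes were lower, with a median of -2.74. The B cell gene Cd79b lost its call in 6 of 8 fits with 1 library left out, with adjusted p up to 0.122. With the gene length correlation as covariate 8 lymphoid priming genes and none of the B cell genes were lower, and with the Y-linked level as covariate 11 and 5 were. Ccr9, the chemokine receptor that guides progenitors to the thymus, had 20.9, 20.8, 20.8 and 22.4 CPM in Ifnar KO libraries, against 89.8, 128, 107 and 123 CPM in WT libraries (-2.40 ± 0.14, adjusted p = 3.76e-07). Il7r, the receptor of the lymphoid growth factor IL-7, had 3.32, 2.74, 11.6 and 4.9 CPM in Ifnar KO libraries, against 22.3, 29.2, 35.4 and 31 CPM in WT libraries (-2.38 ± 0.37, adjusted p = 0.00147). Both genes were lower in every Ifnar KO library. Dntt, which adds bases at antigen receptor joints, had 0.681, 1.68, 0.746 and 1.19 CPM in Ifnar KO libraries, against 14.7, 14.8, 6.03 and 5.17 CPM in WT libraries (-3.23 ± 0.44, adjusted p = 5.83e-04). Rag2, a subunit of the recombinase, had 4.003, 3.43, 1.49 and 2.23 CPM in Ifnar KO libraries, against 15.5, 22.4, 15.7 and 18.2 CPM in WT libraries (-2.69 ± 0.29, adjusted p = 8.70e-05). Ebf1, the B lineage factor, had 2.04, 0.609, 1.94 and 0 CPM in Ifnar KO libraries, against 20.5, 18.7, 24.8 and 15.8 CPM in WT libraries (-4.13 ± 0.55, adjusted p = 4.91e-04). In each of these genes the highest Ifnar KO library lay below the lowest WT library. Flt3 and Ikzf1, which are expressed earlier in the lineage, were not called, at -0.25 ± 0.21 and 0.14 ± 0.10.

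All 6 tested plasmacytoid dendritic cell markers were lower, with a median of -2.95, and 5 were lower with either the length or the Y-linked covariate. Siglech had 0.0852, 0.685, 0.671 and 0.594 CPM in Ifnar KO libraries, against 4.05, 7.19, 6.8 and 5.78 CPM in WT libraries (-3.51 ± 0.45, adjusted p = 3.67e-04), and Cox6a2 had 0.596, 0.228, 0.149 and 0.445 CPM in Ifnar KO libraries, against 11.5, 8.3, 8.02 and 4.22 CPM in WT libraries (-4.48 ± 0.47, adjusted p = 6.07e-05). Bst2 on this list is itself an interferon-stimulated gene (-1.98 ± 0.18, adjusted p = 1.28e-05), and Ccr9 is also on the lymphoid list. The summed level of the 7 listed markers was 277 to 307 CPM in Ifnar KO and 594 to 651 CPM in WT. Tcf4, a gene that progenitors express too, had 214, 210.3, 220.0 and 229 CPM in Ifnar KO libraries, against 272, 301, 279.5 and 307 CPM in WT libraries, and Klk1 had no read in any library. Ighm, whose unrearranged transcripts occur in progenitors, had 55.2, 32.7, 55.5 and 30.5 CPM in Ifnar KO libraries, against 437, 459, 341 and 308 CPM in WT libraries (-3.15 ± 0.22, adjusted p = 1.11e-06). The part that mature B cells or plasmacytoid dendritic cells in the sort had in these differences was not tested; the B cell genes Ms4a1 and Pax5 were at or near 0 in both genotypes.

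Of 12 tested myeloid granule genes 5 were lower, 3 with the length covariate and 5 with the Y-linked covariate. Mpo, which encodes the myeloperoxidase of granulocyte-monocyte progenitors, had 329, 285, 342 and 295 CPM in Ifnar KO libraries, against 1656, 1463, 1313 and 1051 CPM in WT libraries (-2.13 ± 0.13, adjusted p = 5.15e-07). Ctsg, a granule protease, had 1.11, 1.6, 3.73 and 2.37 CPM in Ifnar KO libraries, against 28.3, 21.9, 18.3 and 10.8 CPM in WT libraries (-3.15 ± 0.38, adjusted p = 1.90e-04), and Prtn3, another, had 282, 286, 340.3 and 315 CPM in Ifnar KO libraries, against 577, 523, 535 and 431 CPM in WT libraries (-0.76 ± 0.11, adjusted p = 9.32e-04). The groups did not overlap in these 3 genes. Csf1r, the receptor of macrophage growth factor, had 16.3, 22.7, 34.6 and 24 CPM in Ifnar KO libraries, against 84.4, 95.1, 75.5 and 89.1 CPM in WT libraries (-1.82 ± 0.20, adjusted p = 8.49e-05). It was 1 of 3 lower genes among 9 tested macrophage markers, whose summed level was 37.5 to 88.6 CPM in Ifnar KO and 133 to 158 CPM in WT. The other 2 were the complement genes C1qc, with 0.511, 0.152, 1.27 and 0.965 CPM in Ifnar KO libraries, against 3.26, 2.37, 4.74 and 2.11 CPM in WT libraries (-2.08 ± 0.52, adjusted p = 0.0248), and C1qb, with 0.681, 1.75, 3.58 and 1.93 CPM in Ifnar KO libraries, against 8.11, 2.53, 5.04 and 8.98 CPM in WT libraries (-1.62 ± 0.48, adjusted p = 0.0493). C1qc lost its call in 4 of 8 and C1qb in 6 of 8 fits with 1 library left out. In all, 1 marker was lower without Ifnar KO replicate 1 or 2 or without WT replicate 1 or 3, as with the length covariate. C1qa was not called (-2.34 ± 0.70, adjusted p = 0.0515), and Adgre1 did not reach the filter, at no more than 5.8 CPM. The part of macrophages in the sort in these differences was not tested. Of 9 tested mast cell and basophil genes none was called by edgeR. None had an unadjusted p under 0.05, and DESeq2 and limma-voom called none.

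The stem cell and megakaryocyte lists moved the other way. Of 19 tested HSC genes 9 were higher in Ifnar KO and none was lower, and of 12 tested megakaryocyte genes 8 were higher and none was lower. The megakaryocyte count was 5 without WT replicate 1 and 5 with the length covariate, and the HSC count was 3 with the length covariate. With the Y-linked covariate they were 7 and 7. The 14 listed megakaryocyte genes summed to 1370 to 1685 CPM in Ifnar KO and 1104 to 1217 CPM in WT. Vwf, which marks platelet-biased stem cells and is on both lists, had 33, 28.2, 22.8 and 20.1 CPM in Ifnar KO libraries, against 6.36, 7.9, 5.65 and 4.22 CPM in WT libraries (2.11 ± 0.23, adjusted p = 9.97e-05). Tek, the angiopoietin receptor of stem cells, had 44.5, 55.1, 58.6 and 59.1 CPM in Ifnar KO libraries, against 25.7, 28.1, 28.1 and 28.9 CPM in WT libraries (0.97 ± 0.14, adjusted p = 6.79e-04). Slamf1, which encodes CD150, a surface marker used to sort HSC, had 23.3, 38.5, 20.6 and 20.9 CPM in Ifnar KO libraries, against 6.84, 11.5, 12.3 and 11.2 CPM in WT libraries (1.31 ± 0.25, adjusted p = 0.00601). These groups did not overlap. The junction protein gene Esam (0.79 ± 0.12, adjusted p = 0.00109) and the transcription factor Mecom (0.84 ± 0.18, adjusted p = 0.0107) were higher as well. Itga2b, the platelet integrin CD41, had 194, 243, 176 and 66.3 CPM in Ifnar KO libraries, against 33.6, 57.5, 38.4 and 35.7 CPM in WT libraries (2.04 ± 0.31, adjusted p = 0.00131), and the platelet chemokine Pf4 had 138, 101, 59.8 and 36.8 CPM in Ifnar KO libraries, against 19, 23.3, 23.6 and 10.6 CPM in WT libraries (2.13 ± 0.36, adjusted p = 0.0026). Both were lowest in Ifnar KO replicate 4 among the Ifnar KO libraries.

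Of 17 listed erythroid genes 11 were tested, and of these 6 were higher and none was lower, with a median of 2.02. The summed level of the 17 genes differed less, at 3458 to 3911 CPM in Ifnar KO and 2791 to 3269 CPM in WT. Car1, carbonic anhydrase of early erythroid cells, had 345, 342, 300.4 and 90.4 CPM in Ifnar KO libraries, against 20.6, 36, 14.4 and 26.2 CPM in WT libraries (3.47 ± 0.38, adjusted p = 1.00e-04). Klf1, the master factor of the lineage, had 21.1, 18.1, 17 and 4.53 CPM in Ifnar KO libraries, against 2.07, 2.21, 3.59 and 1.29 CPM in WT libraries (2.73 ± 0.44, adjusted p = 0.00198), and Gata1, its partner factor, averaged 75 ± 28.6 CPM in Ifnar KO and 23.8 ± 6.74 CPM in WT (SD, n = 4 each; 1.66 ± 0.29, adjusted p = 0.00308), with 35.5 CPM in Ifnar KO replicate 4 and 32.7 CPM in the highest WT library. Ifnar KO replicate 4 stood between the other Ifnar KO libraries and WT in all 3 genes, and without it 7 genes of the list were higher. With the length covariate 3 erythroid genes were higher and with the Y-linked covariate 6.

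**Figure D3:**
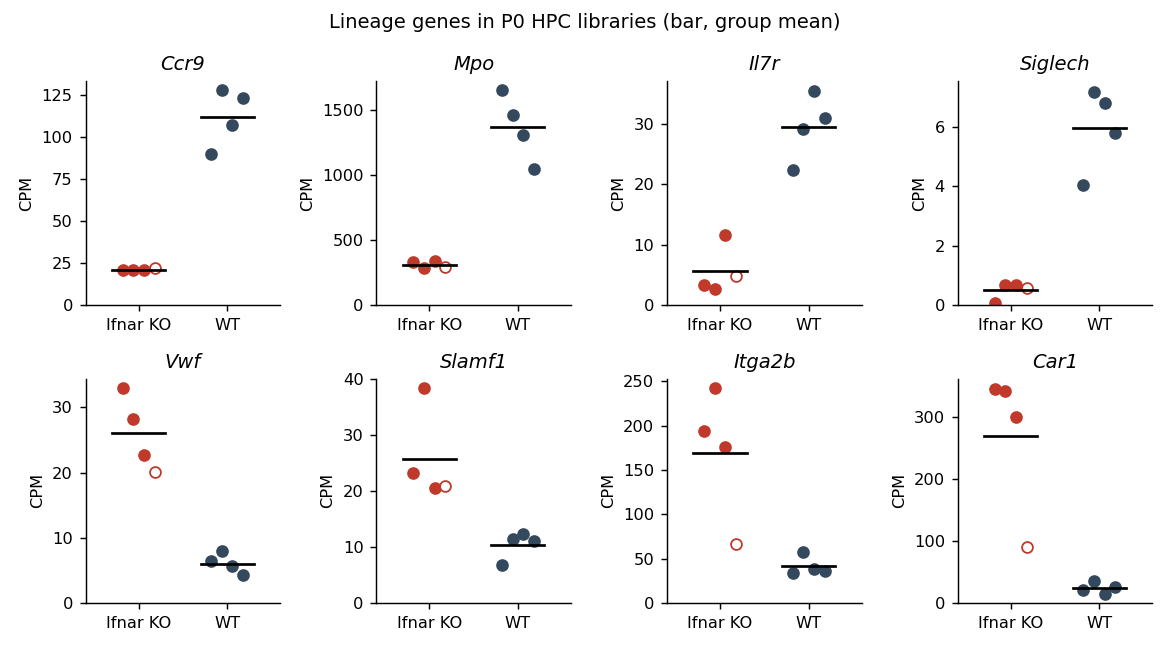
Level in CPM of 8 lineage genes in each library, Ifnar KO left and WT right in each panel, with the group mean as a bar; the axis is linear and starts at 0. Ccr9, Mpo, Il7r and Siglech are lower in all Ifnar KO libraries than in any WT library, and Vwf, Slamf1, Itga2b and Car1 are higher, with Ifnar KO replicate 4 (open circle) lowest of its group in Itga2b and Car1.

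Surface markers and transcription factors of hematopoietic progenitors split. Of 12 tested genes 6 were lower and 3 were higher, against 2 lower and none higher with the length covariate. Cd48, a surface protein that separates HPC from HSC in common sorting schemes, had 139, 206, 228 and 281 CPM in Ifnar KO libraries, against 444, 444, 430.3 and 357 CPM in WT libraries (-0.97 ± 0.17, adjusted p = 0.00364). Ly6a, which encodes Sca-1 and is itself inducible by interferon, had 28.3, 40.3, 93.6 and 88.3 CPM in Ifnar KO libraries, against 232, 138, 202 and 183 CPM in WT libraries (-1.59 ± 0.32, adjusted p = 0.00751). Kit, the stem cell factor receptor, had 779, 793, 888 and 811 CPM in Ifnar KO libraries, against 447, 523, 466 and 798 CPM in WT libraries (0.55 ± 0.16, adjusted p = 0.0444), with WT replicate 4 inside the range of the Ifnar KO libraries. Gata2, a stem and progenitor factor, had 211, 194, 161 and 132 CPM in Ifnar KO libraries, against 77.2, 71, 71.6 and 117 CPM in WT libraries (1.05 ± 0.18, adjusted p = 0.00329). Cd34, Cd27 and Cebpa were lower too, at -0.56 ± 0.09, -0.85 ± 0.19 and -1.24 ± 0.35, and Spi1 was higher, at 1.16 ± 0.23. Because Cd48 and Ly6a, as well as Slamf1, encode proteins that are commonly used to define such gates, the composition of the sorted population and the level per cell cannot be told apart here.

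Some lists of cell processes held no call, while 10.4% of all genes tested were called. The lack of a call does not show that a list was unchanged. Of 20 tested G2/M genes, 22 tested cytosolic ribosomal protein genes and 13 tested p53 targets edgeR called none, with 5, 2 and 3 of them at an unadjusted p under 0.05, and DESeq2 called 1, 0 and 1. Without WT replicate 4 the ribosomal list had 7 lower genes. Among 18 S phase genes 3 were lower, 0 without WT replicate 1 or 3, 1 without Ifnar KO replicate 3. Among 21 oxidative phosphorylation genes 2 were lower, or 7 without WT replicate 4. Fold changes within some of these lists were mostly of the same sign. Of 20 G2/M genes 19 were positive, with a median of 0.19. Of 22 ribosomal genes 20 were negative (median -0.17). So were 16 of 18 S phase genes (median -0.11) and 17 of 21 oxidative phosphorylation genes (median -0.21). The 13 p53 targets were split, with 7 negative and 6 positive. The feedback genes Socs2 (0.93 ± 0.16, adjusted p = 0.0035) and Cish (0.75 ± 0.20, adjusted p = 0.0315) were higher among 9 tested STAT5 targets, Cish losing its call in 6 of 8 fits with 1 library left out. Jun, an immediate early gene, had 13.5, 17.1, 15.1 and 12.8 CPM in Ifnar KO libraries, against 3.58, 3.48, 3.21 and 5.24 CPM in WT libraries (1.91 ± 0.23, adjusted p = 1.97e-04), and was the 1 gene called among 14 of that list. Of 10 tested imprinted growth genes 3 were higher, or 1 without WT replicate 1 and with the length covariate, among them Grb10, an adaptor that restrains growth factor receptors, with 127, 89.3, 154 and 139 CPM in Ifnar KO libraries, against 44.7, 52.9, 49.3 and 60.8 CPM in WT libraries (1.29 ± 0.17, adjusted p = 3.35e-04).

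The largest difference towards Ifnar KO by fold was in Plekhh2, a cytoskeletal protein gene, with 8.26, 442, 535 and 483 CPM in Ifnar KO libraries, against 5.49, 0.632, 2.67 and 1.43 CPM in WT libraries (7.18 ± 1.01, adjusted p = 6.95e-04). Ifnar KO replicate 1 was close to WT replicate 1, and the other 3 Ifnar KO libraries were far above every WT library. With limma-voom Plekhh2 was not called (adjusted p = 0.12), nor was it in edgeR with the length covariate (adjusted p = 0.0719). The endocytic gene Ehd3 had 47.6, 63.9, 42.5 and 17.3 CPM in Ifnar KO libraries, against 5.57, 6.01, 4.12 and 3.54 CPM in WT libraries (3.16 ± 0.35, adjusted p = 9.00e-05) and Samd14 had 44.1, 35.9, 24.5 and 10.2 CPM in Ifnar KO libraries, against 1.11, 4.03, 1.53 and 1.57 CPM in WT libraries (3.80 ± 0.47, adjusted p = 2.71e-04), both without overlap between the groups.

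The gene length correlation was set against these results directly. In the shortest quartile of tested genes 7.88% were lower and 3.2% were higher in Ifnar KO, and in the longest quartile 2.96% were lower and 6.84% were higher, with median log2 fold changes of -0.151 and 0.136. With the length correlation of each library as a covariate 206 genes were lower and 74 were higher. Of the interferon-list genes 79 were lower in that fit. Fold changes of some of the genes that lost the call there are given next. Cd48 was at -0.90 (adjusted p = 0.122) against -0.97 without the covariate, and Ly6a at -1.73 (adjusted p = 0.107) against -1.59. Slamf1 was at 1.36 (adjusted p = 0.117) against 1.31, and Gata1 at 1.86 (adjusted p = 0.063) against 1.66. Jak2 was at 0.60 (adjusted p = 0.161) against 0.65, and Gata2 at 0.78 (adjusted p = 0.147) against 1.05. In H2-Eb1 (-0.91, adjusted p = 0.684), H2-DMa (-0.55, adjusted p = 0.069) and Etv5 (0.36, adjusted p = 0.584) the fold change was smaller than without the covariate. Plekhh2 also lost the call, at 7.51 (adjusted p = 0.0719). Of 154 named genes with a call, 58 lost it in that fit. With a length trend removed from each library as an offset the counts were 697 lower and 580 higher. Cd48, Ly6a, Slamf1, Gata1, Jak2 and Gata2 kept the call in that fit, and H2-Eb1 lost it (adjusted p = 0.0542).

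WT replicate 4, whose length correlation lies within the range of the Ifnar KO libraries, was also compared with them alone. It is 1 library, so WT has no spread there. It is of female cells and no Ifnar KO library is, so sex separates the genotypes in that comparison. The part of the length correlation or of sex in the differences was not tested. Against this library alone the median difference of the interferon lists in log2 CPM was -1.19, against -1.21 when the mean of the other 3 WT libraries was used. The medians against WT replicate 4 and against the other 3 WT libraries were -1.91 and -2.35 for the lymphoid priming genes, -0.518 and -0.765 for the myeloid granule genes, 0.741 and 0.681 for the HSC genes, 1.6 and 1.39 for the megakaryocyte genes and 1.26 and 1.56 for the erythroid genes. All 4 Ifnar KO libraries lay below WT replicate 4 in 130 of 150 interferon-list genes (86.7%) and in 13 of 14 lymphoid priming genes (92.9%), beside 22.1% of all genes tested, and above it in 13 of 19 HSC genes (68.4%), beside 21.5% of all genes tested. With the Y-linked level as covariate 710 genes were lower and 579 were higher, of which 535 and 419 were among the 702 and 645 called without it. With the 6 libraries that hold Y-linked reads, an alternative chosen after the data were seen, 735 genes were lower and 641 were higher, and 100 of the interferon-list genes were lower.

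**Figure D4:**
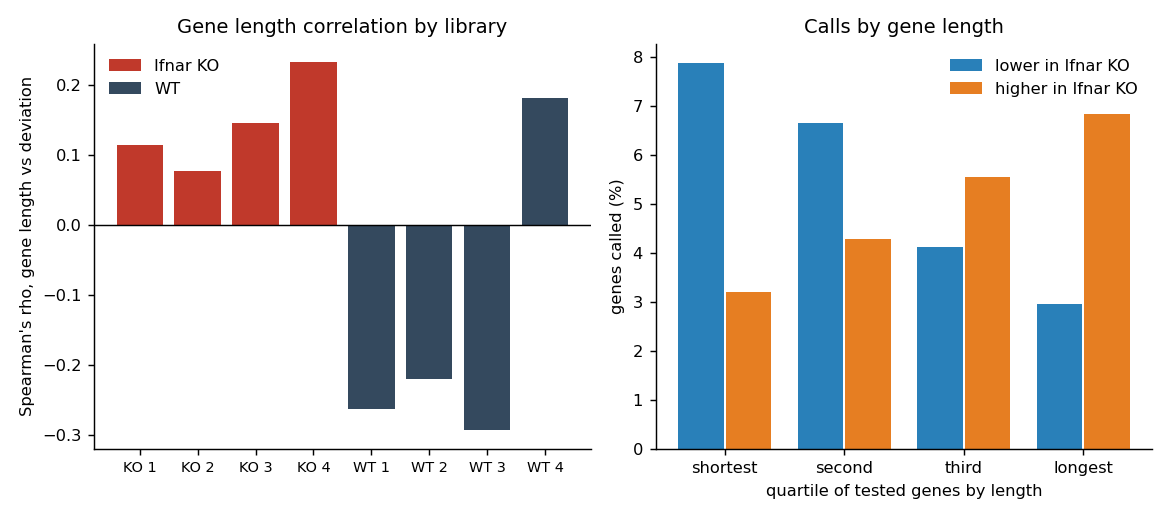
Left, Spearman correlation of gene length with each library's deviation from the 8-library mean, Ifnar KO libraries left of WT libraries. Right, share of tested genes that were lower or higher in Ifnar KO in each quartile of gene length; WT replicate 4 is the 1 WT library with a positive correlation, and calls shift from lower to higher with length.

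The effect in HPC was then set beside that in HSC of the same age, which come from other libraries with 37.04 to 46.3 M reads. In HSC 151 of 16224 genes were lower in Ifnar KO (0.931%) and 34 were higher (0.21%), together 1.14%. The number of higher genes was 18 without Ifnar KO replicate 1 of the HSC, and 22, 20 and 21 without their WT replicates 1, 3 and 5. Of the 112 interferon-list genes lower in HPC, 79 were also lower in HSC and none was higher, which is 70.5% of the HPC set and 52.3% of the genes lower in HSC. Rtp4 differed by -6.47 ± 0.26 in HPC and -7.01 ± 0.36 in HSC, and Irf7 by -5.26 ± 0.26 in HPC and -4.66 ± 0.33 in HSC, and neither difference between the cell types was called (adjusted p = 0.594 for Rtp4 and 0.525 for Irf7). Of the 590 genes lower in HPC outside the interferon lists, 30 were lower in HSC (5.08% of them), and 4 of all 702 were higher there. Of the 645 genes higher in HPC, 2 were higher and 4 were lower in HSC. The 2 became 0 without HSC Ifnar KO replicate 1 or 2 or without HSC WT replicate 1, 3 or 5.

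A test of the difference itself called 293 of 17191 genes (1.7%), 118 with a more negative (0.686%) and 175 with a more positive effect in HPC (1.02%). Interferon-list genes made up 6 of the 118. Mpo differed by -2.13 ± 0.13 in HPC and 0.36 ± 0.23 in HSC (difference -2.50 ± 0.26, adjusted p = 3.66e-05). For Irf8 the effects were -2.02 ± 0.18 in HPC and -0.26 ± 0.20 in HSC (difference -1.78 ± 0.28, adjusted p = 0.00145), and for the recombination gene Dntt they were -3.23 ± 0.44 in HPC and 0.93 ± 0.92 in HSC (difference -4.17 ± 0.97, adjusted p = 0.0298). In the positive direction Vwf differed by 2.11 ± 0.23 in HPC and 0.09 ± 0.19 in HSC (difference 2.01 ± 0.30, adjusted p = 0.00129), and the difference was also called for 8 of 19 HSC genes, 5 megakaryocyte genes and 4 erythroid genes, Gata1 among them. Gata1 differed by 1.66 ± 0.29 in HPC and -1.76 ± 0.36 in HSC (difference 3.40 ± 0.49, adjusted p = 8.73e-04). It was called for 4 of 14 lymphoid priming genes and 4 of 13 myeloid granule genes, all more negative in HPC. Within HSC 0 of 10 tested lymphoid priming genes and 1 of 19 HSC genes (lower) were called, with list medians of 0.22 and -0.05. Of 12 erythroid genes tested in HSC 1 was lower. That number was 0 without HSC Ifnar KO replicate 1, 2 or 3 or without HSC WT replicate 1 or 2. The number of genes whose effect differed was 589 without WT replicate 4 of the HPC, 184 without their WT replicate 1 and 187 without their Ifnar KO replicate 2.

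**Figure D5:**
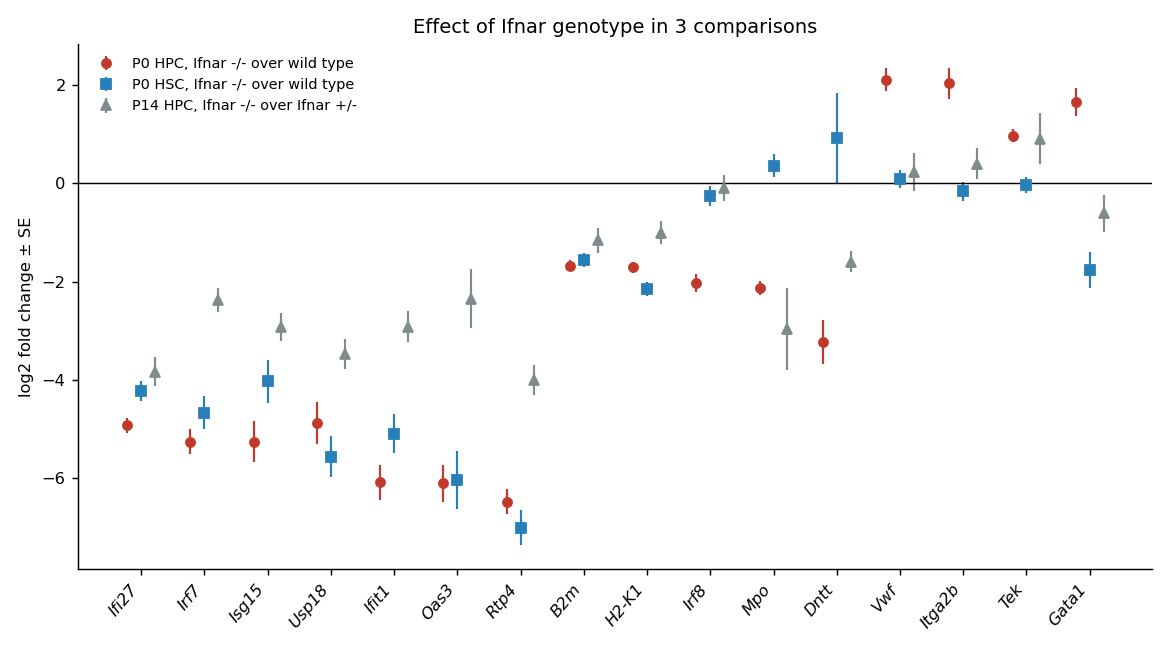
Log2 fold change of 16 genes with its standard error in P0 HPC (Ifnar -/- over wild type), P0 HSC (Ifnar -/- over wild type) and P14 HPC (Ifnar -/- over Ifnar +/-, both with unmutated Flt3). The interferon genes from Ifi27 to H2-K1 lie below 0 in all 3 comparisons. Mpo is below 0 in P0 HPC (-2.13) and above it in P0 HSC (0.36), and Vwf is above 0 in P0 HPC (2.11) and close to it in P0 HSC (0.09).

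At P14 the Ifnar -/- cells were compared with Ifnar +/- cells, which keep 1 copy of the gene. There 42 of 16333 genes were lower in Ifnar -/- HPC (0.257%) and none was higher, and 39 of the 42 were also among the 702 genes lower at P0. The interferon lists held 24 of the 42. Lineage lists had medians of -0.93 for 14 lymphoid priming genes (2 lower) and -1.09 for 13 myeloid granule genes (none called). Medians were 0.57 for 19 HSC genes, 0.40 for 12 megakaryocyte genes and 0.17 for 15 erythroid genes, none of them called. The median of all genes tested was 0.04. Ifi27 differed by -4.93 ± 0.16 at P0 and -3.83 ± 0.29 at P14, Usp18 by -4.87 ± 0.43 at P0 and -3.47 ± 0.30 at P14. In the test of the difference 52 of 16721 genes were called (0.311%), among them Irf7 (difference -2.87 ± 0.35, adjusted p = 8.72e-04) and Rtp4 (difference -2.44 ± 0.39, adjusted p = 0.00755), both further down at P0. Without single other libraries the number of lower genes was 26 at the fewest and 40 at the most, with 27 without Ifnar -/- replicate 1 and without Ifnar +/- replicate 4, but Ifnar +/- replicate 2 decides these counts. That library had a length correlation of 0.327 while the other 3 Ifnar +/- libraries had -0.31, -0.432 and -0.281. Without it 2097 of 16764 genes tested were lower and 2714 were higher at P14, 62 of the lower and 21 of the higher ones in the interferon lists. The test of the difference then called 1511 genes. Of the lineage lists, 6 of 14 lymphoid priming genes were lower and 3 higher. Of 13 myeloid granule genes 7 were lower, and of 19 HSC genes 1 was lower and 8 were higher. With so many of all genes called in that fit, these counts are not read as results about the lists. The 4 Ifnar -/- libraries had length correlations of 0.195, 0.194, 0.338 and 0.3, so this measure separates the genotypes in that fit.

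The genes that fell with loss of the receptor were set beside their levels in the age series, whose libraries share none with the comparison and were counted in another table. In that series 381 of 14754 genes were higher at P0 than at E16 (2.58%) and 102 were lower (0.691%), 483 in all (3.27%), against 236 without E16 replicate 1, 265 without E16 replicate 2, 247 without P0 replicate 3 and 283 without P0 replicate 2. Of the 112 interferon-list genes lower in Ifnar KO HPC, 48 were higher at P0 than at E16 (42.9%) and none was lower. Markers of other cells differed with age too. At P0, 7 of 10 tested mast cell and basophil genes were higher, with a list median of 5.22, as was 1 of 11 macrophage markers, with a list median of 2.15. In CPM without TMM factors the mast cell and basophil genes summed to 4376 to 22060 at P0 and 885.8 to 1266 at E16. The macrophage markers summed to 106.3 to 150.2 at P0 and 50.87 to 84.17 at E16. The part of these cells in the age difference was not tested. Irf7 averaged 29.3, 155, 58.7, 66.7 and 94.2 CPM at E16, P0, P7, P14 and in adults, and its log2 difference of P0 over E16 was 2.40 ± 0.26 (adjusted p = 1.94e-05). Ifit1 averaged 12.9, 49.1, 22.6, 18.4 and 38.5 CPM at the same ages (1.94 ± 0.34, adjusted p = 0.00204). Both genes had their highest mean at P0. Of the 590 lower genes outside the interferon lists 65 were higher at P0 than at E16 (11%), and of the 645 genes higher in Ifnar KO 16 were lower at P0 than at E16. Grb10, higher in Ifnar KO, averaged 104, 55.6, 60.6, 17.5 and 12.4 CPM over the series and was lower at P0 than at E16 (-0.90 ± 0.19, adjusted p = 0.00938).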

How the data were processed

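RNA was extracted with the Qiagen micro kit and amplified with a Clontech kit, per the labels' protocols. The submitters' processing notes name STAR 3.0.4, Subread and featureCounts 1.4.5, with no role or order, and the genome build is not given in the sources used here. The authors deposited raw read counts per gene in tables of the whole series, and 1 column of per-sample values that matched no sample was not used. The 8 P0 HPC libraries are in 1 table of 40481 genes. Symbols and exon lengths came from GENCODE M21, and 2 rows that are not mouse gene IDs were left out.

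Counts were tested with edgeR 4.0.16 (R 4.3.3): TMM factors, filterByExpr, quasi-likelihood F-test, two-sided, Benjamini-Hochberg adjustment over all genes tested, called at an adjusted p under 0.05. Standard errors are the log2 fold change over the square root of F. The fits were also run on counts simulated with known fold changes and no length trend. In some draws edgeR's share of false calls exceeded the adjusted p threshold. A limit on this share was set at first, was exceeded in a draw, was then raised and was later removed. Alternatives were DESeq2 1.42.0, limma-voom (limma 3.58.1), other size factors and filters, a replicate block, covariates, a length offset, and each library left out. The fit on libraries with Y-linked reads, the comparisons with WT replicate 4 alone and the fits that left out P14 or HSC libraries were added after seeing the data. The members and gene lists were chosen with earlier results of these data known.

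Named genes were Ifnar1 and Ifnar2, the 15 lower and 15 higher genes of largest fold change without overlap between groups, and up to 5 genes per list; further list members named in the text were chosen after their values were seen. Results for some genes are not reported here.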

Additional observations from a re-analysis of the deposited data

Results flagged for a closer look

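In groups of 4 libraries, 1 value was set apart from the other 3 by a gap above Dixon's 95% limit for the share of the group's range in 23 of 252 sets tested, and chance gives about 1 in 20. Ifnar KO replicate 1 stood apart in Etv5 (65.7 CPM), Flt3 (379 CPM), Ifih1 (17.6 CPM), Ikzf1 (319 CPM), Siglech (0.0852 CPM) and Usp18 (7.24 CPM). Ifnar KO replicate 2 stood apart in Slamf1 (38.5 CPM). Ifnar KO replicate 4 stood apart in Alb (0.519 CPM), Ccr9 (22.4 CPM), Ifnar1 (75.5 CPM), Oas2 (0.297 CPM) and Zbp1 (0.0742 CPM). WT replicate 1 stood apart in H2-K1 (959.8 CPM) and Pax5 (0 CPM). WT replicate 2 stood apart in Samd14 (4.03 CPM). WT replicate 3 stood apart in Cish (14.9 CPM), Ifit1 (113 CPM) and Il1b (0.687 CPM). WT replicate 4 stood apart in Cd48 (358 CPM), Gata2 (117 CPM), H2-DMa (183 CPM) and Ifnar1 (79.5 CPM). WT replicate 4 also stood apart in its gene length correlation (0.181). In the genes with a single read or a few reads in a group, such as Oas2, Zbp1 and Pax5, the gap is one of 1 to 4 reads.

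The effect of the genotype differed between HPC and HSC at P0, by edgeR's quasi-likelihood test of the difference with Benjamini-Hochberg adjustment, in 24 of the genes named here. The log2 difference, HPC minus HSC, was negative for Cd48 (-1.31, adjusted p = 0.0479), Cebpa (-3.03, adjusted p = 0.0274), Dntt (-4.17, adjusted p = 0.0298), H2-DMa (-1.10, adjusted p = 0.00443), Ifitm6 (-3.35, adjusted p = 0.0106), Irf8 (-1.78, adjusted p = 0.00145), Mpo (-2.50, adjusted p = 3.66e-05), Prtn3 (-1.03, adjusted p = 0.0139) and Rsad2 (-1.22, adjusted p = 0.0465). It was positive for Col1a2 (2.77, adjusted p = 0.0113), Ehd3 (3.75, adjusted p = 5.88e-05), Esam (0.85, adjusted p = 0.00328), Gata1 (3.40, adjusted p = 8.73e-04), Grb10 (1.46, adjusted p = 0.0362), Itga2b (2.18, adjusted p = 0.00545), Jun (1.83, adjusted p = 0.0179), Klf1 (2.72, adjusted p = 0.0341), Pf4 (2.00, adjusted p = 0.0179), Plekhh2 (7.22, adjusted p = 8.73e-04), Samd14 (3.54, adjusted p = 0.00498), Slamf1 (1.74, adjusted p = 0.00339), Socs2 (1.27, adjusted p = 0.00986), Tek (0.99, adjusted p = 0.0148) and Vwf (2.01, adjusted p = 0.00129). HPC and HSC libraries also differ in depth and library code, and the part of either was not tested.

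The effect differed between P0 and P14 HPC in 12 of the genes named here, by the same test. The log2 difference, P0 minus P14, was negative for Ccr9 (-1.89, adjusted p = 0.00645), Dhx58 (-1.66, adjusted p = 0.00645), Ifit1 (-3.16, adjusted p = 0.00645), Ighm (-2.12, adjusted p = 0.00492), Irf7 (-2.87, adjusted p = 8.72e-04), Irf8 (-1.91, adjusted p = 0.0128), Irf9 (-1.41, adjusted p = 0.0494), Rtp4 (-2.44, adjusted p = 0.00755), Tgtp2 (-2.14, adjusted p = 0.0174) and Zbp1 (-5.77, adjusted p = 0.0141). It was positive for Ehd3 (3.25, adjusted p = 0.0125) and Plekhh2 (7.04, adjusted p = 0.00645). Both ages differ in their control, wild type at P0 and Ifnar +/- at P14, and age and control genotype cannot be told apart. Without Ifnar +/- replicate 2 at P14 the test called 1511 genes in place of 52.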

How the results depend on the processing

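The number of lower interferon-list genes stayed within 1.5 times of 112 under every alternative run, from 79 to 122. The counts over all genes, 702 lower and 645 higher, were 206 and 74 with the gene length correlation as covariate (73.6% of calls lower, against 52.1%), 459 and 345 with all libraries of the second table in 1 fit, and 976 and 1060 with DESeq2. With 1 library left out they were 371 to 1130 lower and 279 to 1180 higher, the most being without WT replicate 4. The replicate block gave 506 lower and 441 higher. Same-numbered libraries did not deviate together (correlations of -0.065, 0.13, -0.014 and 0.036), so the numbers were not taken as pairs. The test of HPC minus HSC, 293 genes, called 759 with DESeq2, 180 with the replicate block and 184 to 589 with 1 library left out. The test of P0 minus P14, 52 genes, called 222 with DESeq2, 134 with no low-count filter, 25 with the replicate block and 23 to 1511 with 1 library left out. The age comparison, 483 genes, called 877 with DESeq2 and 236 to 545 with 1 library left out. Of 154 named genes with a call, 130 kept it in every fit with 1 library left out, 96 with the length covariate and 146 with the length offset. The log2 fold change changed sign only in genes without a call. Il10rb was at 0.12 (Y-linked level as covariate) and 0.112 (only libraries with Y-linked reads) and at -0.225 to 0.0551 with 1 library left out. Irf2 was at 0.0129 (upper-quartile factors) and 0.122 (gene length correlation as covariate) and at -0.0755 to 0.0914 with 1 library left out. Pias1 was at -0.102 (gene length correlation as covariate), -0.0684 (gene length offset) and -0.00116 (all second-table libraries in 1 fit) and at -0.0802 to 0.0885 with 1 library left out. Socs3 was at -0.0756 to 1.48 with 1 library left out. Stat6 was at -0.00644 (gene length correlation as covariate). The cause of these differences was not tested. Genes at a few reads per library, such as Siglech and Ctsg in Ifnar KO, are limited by depth.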

Other observations

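Other lists with few calls hold genes of growth signalling and metabolism. Of all genes tested 10.4% were called, so the counts below are not read as results about these lists. Hk1, the first enzyme of glycolysis, was higher in Ifnar KO (0.80 ± 0.12, adjusted p = 0.00113), the 1 call among 16 tested glycolysis genes. Spry2 (0.48 ± 0.14, adjusted p = 0.0472) and Etv5 (0.72 ± 0.20, adjusted p = 0.0394), which are induced by MAPK signalling, were the 2 calls among 9 tested genes of that list. Etv5 lost its call in 7 of 8 and Spry2 in 5 of 8 fits with 1 library left out. The list had no higher gene without Ifnar KO replicate 1 or 2 or without WT replicate 1, 2 or 3, and 1 without Ifnar KO replicate 3 or 4. Of 18 cholesterol synthesis genes Fdps was lower (-0.74 ± 0.19, adjusted p = 0.026) and the regulator Srebf2 was higher (0.41 ± 0.11, adjusted p = 0.0315), and they lost their calls in 4 of 8 and 6 of 8 such fits. Igf2bp3, a fetal RNA-binding protein gene, was lower (-0.50 ± 0.11, adjusted p = 0.0141) and was the 1 call among 8 tested genes of the Lin28b axis, lost in 1 of 8 such fits. Among S phase genes Tyms (-0.40 ± 0.11, adjusted p = 0.0379), Rrm2 (-0.62 ± 0.15, adjusted p = 0.0194) and Gins2 (-0.47 ± 0.11, adjusted p = 0.0138), which act in nucleotide supply and replication, were lower, and lost their calls in 5 of 8, 3 of 8 and 2 of 8 such fits.

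Single markers of other cells were called as well. Nkg7 of T and NK cells was lower, with 33.2, 31.4, 50 and 53.9 CPM in Ifnar KO libraries, against 107, 85.6, 103 and 64.2 CPM in WT libraries (-1.10 ± 0.21, adjusted p = 0.00566). The neutrophil receptor gene Cxcr2 was lower (-1.13 ± 0.21, adjusted p = 0.00445), as was Fcgr1, an Fc receptor gene of monocytes (-1.72 ± 0.46, adjusted p = 0.032), which lost its call in 5 of 8 fits with 1 library left out. The cytokine gene Il1b was higher, with 1.45, 3.5, 1.49 and 0.742 CPM in Ifnar KO libraries, against 0, 0, 0.687 and 0 CPM in WT libraries (3.33 ± 0.94, adjusted p = 0.0398), a call lost in 6 of 8 such fits, and the collagen gene Col1a2 was higher, with 13.6, 14.7, 11.3 and 3.64 CPM in Ifnar KO libraries, against 2.46, 2.29, 0.993 and 1.91 CPM in WT libraries (2.49 ± 0.43, adjusted p = 0.00276). None of 5 tested hepatocyte and 5 tested endothelial markers was called, beside 10.4% of all genes tested. These p-values are from edgeR's quasi-likelihood test of Ifnar KO over WT with Benjamini-Hochberg adjustment over all genes tested.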
